A study of Mus musculus with 81 samples.

Results

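The comparison concerns macrophages grown from mouse bone marrow for 7 days, with and without cre that targets both histone H3.3 genes. It rests on the 6 libraries labelled as bone marrow derived macrophages (BMDMs) on day 7, 3 WT and 3 cKO, of the 81 RNA-seq libraries in the series. Marrow cells were cultured in medium with L929 conditioned medium, a source of M-CSF. The mice were C57BL/6 animals, 8 to 10 weeks old. The study used both sexes, but all 18 libraries of the time course held RNA of the Y-linked gene Ddx3y (58.98 to 77.31 CPM) and at most 0.119 CPM of Xist. WT mice carried floxed H3f3a and H3f3b (both alleles of each) and no cre, and cKO mice carried the same floxed alleles and LysM cre/cre. The cre sits in the Lyz2 gene, is active in myeloid cells and occupies both copies, so that loss of H3.3 cannot be told apart here from loss of Lyz2 or presence of cre. The labels call the replicates biological and do not say whether a replicate was 1 animal.

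H3.3 is the histone H3 variant that is placed on DNA outside replication, at active genes and regulatory regions, and H3f3a and H3f3b encode the same protein. Under M-CSF, marrow progenitors pass through a monocyte stage, in which genes such as Ly6c2 and Plac8 are high, and then gain macrophage genes such as Adgre1 and Csf1r. Type I interferon adds a program of antiviral genes to this course.

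Counts on genes ranged from 14419697 to 20220329 per library. Levels are given as CPM, counts divided by library size after TMM scaling. A fold change is the fitted log2 difference of cKO minus WT with its standard error (SE), and genes below 0.05 after adjustment were called, using the quasi-likelihood test of edgeR fitted on the 18 libraries of the time course (days 3, 5 and 7). WT replicate 2 stood apart: over all genes its log2 levels correlated at 0.928 to 0.968 with the other libraries, whereas the closest pair, cKO replicates 2 and 3, reached 0.992. The median SD of a gene between libraries was 0.362 log2 units in WT and 0.215 in cKO.

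On day 7, 291 of 15955 genes tested were called (1.82%), 181 higher (1.13%) and 110 lower (0.689%) in cKO. At an unadjusted p under 0.05 there were 2653. The median level was 1.41 CPM in WT and 7.32 CPM in cKO for genes that rose, and 40.3 and 19.6 CPM for genes that fell. These levels depend in part on the filter on low counts, since a gene with little WT RNA can be called higher but hardly lower. The median log2 fold change was 2.09 for the former and -1.08 for the latter, and 150 genes rose and 58 fell by at least 1. In 180 of the 181 genes that rose and 107 of the 110 that fell, the 3 cKO libraries did not overlap the 3 WT libraries, which held for 16.6% of all genes tested (9.5% with cKO higher and 7.09% with cKO lower). The genes were called from these same libraries, so their separation largely restates the choice.

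**Figure D1:**
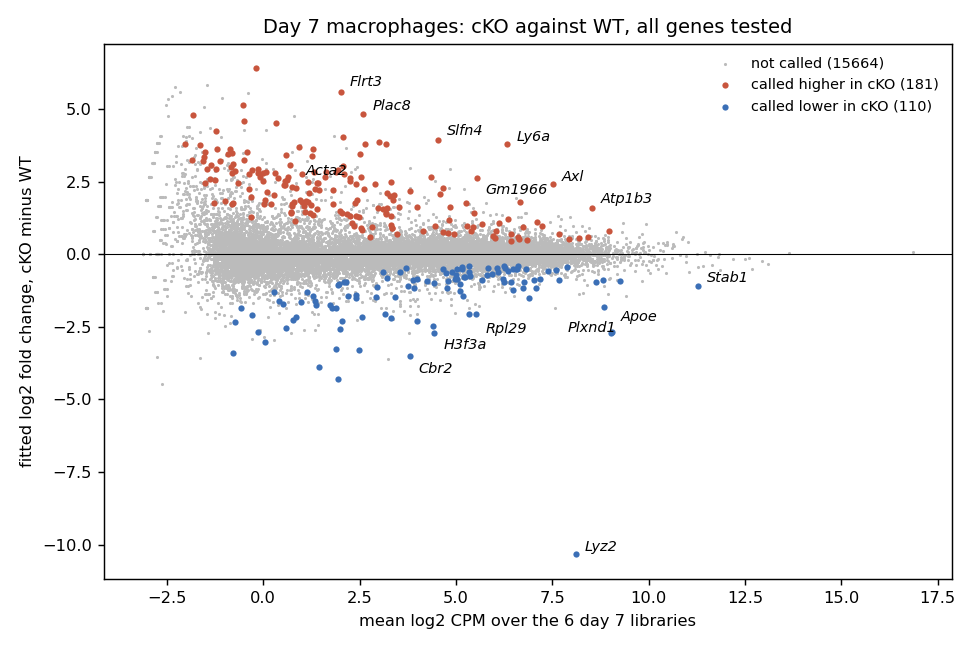
Fitted log2 fold change of cKO minus WT on day 7 (vertical axis) against mean log2 CPM over the 6 libraries (horizontal axis) for the 15955 genes tested, with 181 genes called higher in red and 110 called lower in blue. The red points start from a median WT level of 1.41 CPM and the blue points from 40.3 CPM, and Lyz2 lies lowest at -10.34.

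The number of calls depended on single libraries. Without WT replicate 1 there were 846 calls (358 higher, 488 lower), and without cKO replicate 1 there were 64 (47 higher, 17 lower). Leaving out WT replicate 2 gave 128, cKO replicate 2 gave 138 and cKO replicate 3 gave 120. With the replicate number as a block there were 448 (296 higher, 152 lower). From the 6 day 7 libraries alone 19 genes were called, and 23 from these with the block. Of the 291 genes, 38 that rose and 13 that fell were called in each of the 6 fits that left a library out.

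**Figure D2:**
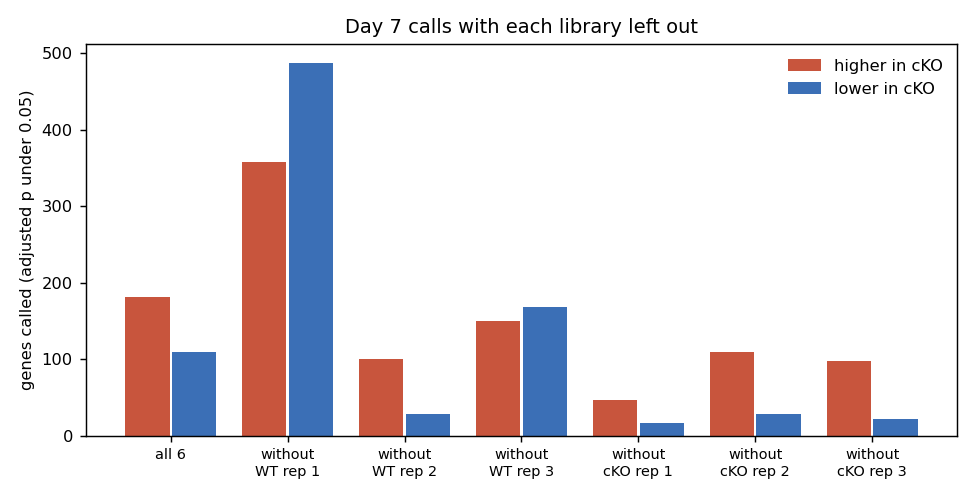
Genes called higher (red bars) or lower (blue bars) in cKO with all 6 libraries and with each library left out in turn. The counts run from 64 genes without cKO replicate 1 to 846 without WT replicate 1.

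The targeted genes and the cre locus were read first. H3f3a, on chromosome 1 between positions 180800832 and 180813943 of GRCm38, was at 53.5, 69.1 and 44.2 CPM in WT and at 6.82, 10.02 and 8.71 CPM in cKO. It fell by 2.70 on the log2 scale (SE 0.16, adjusted p = 1.29e-07), and the groups were far apart. The loxP sites flank exon 2, so reads from the rest of the transcript can remain. In bulk RNA, fewer cells of a kind and less RNA per cell cannot be told apart.

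H3f3b, on chromosome 11 between positions 116021912 and 116027962, was at 279.8, 181 and 207 CPM in WT and at 181, 166 and 156 CPM in cKO. Here the groups overlapped, with WT replicate 2 inside the cKO range. Its fold change on the log2 scale was -0.41 (SE 0.16, adjusted p = 0.204), so a change in H3f3b was not detected although loxP sites flank its exons 1 to 4. The paper reports that deletion of this gene varied between cKO samples, from partial to complete. Lyz2, which encodes lysozyme, was at 13950, 12460 and 5928 CPM in WT and at 14.1, 4.57 and 6.29 CPM in cKO (log2 fold change -10.34, SE 0.61, adjusted p = 1.29e-07). Its neighbour Lyz1, the other lysozyme gene, stayed under 6 CPM in all 6 libraries and was not called. Within 5 Mb, 0 of 49 other tested genes were called around Lyz2, 0 of 74 around H3f3a and 4 of 182 around H3f3b (2.2%, against 1.82% of all genes). The last were Cd300lf, which rose, and Cbr2, Rac3 and Mcrip1, which fell, Mcrip1 being named after its values were seen.

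The cells carried the RNA of macrophages in both groups. Adgre1 (F4/80) ranged from 884 to 2109 CPM in WT and from 783 to 1636 in cKO. Csf1r, the M-CSF receptor, ranged from 1849 to 4463 in WT and from 1651 to 2033 in cKO. Of 27 macrophage identity genes, 1 rose (Axl), 1 fell (Maf) and 20 had a negative fold change, with a median of -0.27 against 0.01 over all genes tested. Of 15 T and NK cell genes, 11 had too few counts to be tested, Cd3e and Cd3g among them with 0 in all 6 libraries. Il7r, a cytokine receptor, was at 41.8 to 119 CPM and Cd4 at 11.8 CPM in WT replicate 2 and under 3 CPM in the others, and neither was called.

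Some genes of the monocyte stage were among the largest rises. Of 24 tested, 5 rose (20.8%, against 1.13% of all genes) and 0 fell, with a median log2 fold change of 0.91. Summed, the list came to 2103, 1492 and 935.5 CPM in WT and to 2176, 1532 and 1787 CPM in cKO. The groups overlapped in this sum. Plac8, a small protein of immature myeloid cells, was at 1.10, 1.33 and 0.879 CPM in WT and at 27.1, 26.2 and 39.5 CPM in cKO (4.82, SE 0.62, adjusted p = 0.000926). Ly6c2, which encodes the Ly6C surface protein of inflammatory monocytes, was at 2.66, 1.82 and 3.15 CPM in WT and at 59.3, 15.6 and 32.7 CPM in cKO (3.79, SE 0.58, adjusted p = 0.00367). In both genes the lowest cKO library stood well above the highest WT library.

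Plbd1, a phospholipase B-like protein of granules, was at 3.29, 2.59 and 2.02 CPM in WT and at 90.9, 11.4 and 13.3 CPM in cKO (3.87, SE 0.73, adjusted p = 0.0170), with cKO replicate 1 far above the rest. Slfn4, a schlafen gene of myeloid cells, was at 20.2, 1.75 and 2.69 CPM in WT and at 205, 68.0 and 106 CPM in cKO (3.92, SE 0.93, adjusted p = 0.0424). Gsr, glutathione reductase, rose by a smaller amount (0.94, SE 0.21). Other markers of that stage were not called: Ccr2 had a log2 fold change of -0.29 and Vcan of 1.03. Leaving out single libraries gave 2 calls (without cKO replicate 1) to 6 (without WT replicate 1).

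Along the time course the WT level of Ly6c2 was 65.1 ± 19.4 CPM (mean ± SD, n = 3) on day 3, 13.8 ± 0.995 on day 5 and 2.54 ± 0.675 on day 7. In cKO it was 384 ± 97.0, 136 ± 109 and 35.9 ± 22.1 CPM. The mean of each genotype was lower on each later day, and cKO libraries on day 7 still held more of this RNA than WT libraries on day 5. The mean of Plac8 went from 28.8 to 4.26 to 1.10 CPM in WT and from 115 to 69.0 to 30.9 CPM in cKO. The cKO mean of day 5 was raised by 1 library (147.5 CPM, against 23.4 and 36.0 CPM). On day 7 the cKO libraries were at 27.1, 26.2 and 39.5 CPM. The fold change of Ly6c2 on day 7 was not shown to differ from that on day 3 (difference 1.24, SE 0.73, adjusted p = 0.420).

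Primary granule genes were called as well, at low levels. Elane (neutrophil elastase) was at 1.25, 0.700 and 1.65 CPM in WT and at 12.8, 3.34 and 10.2 CPM in cKO (2.82, SE 0.56, adjusted p = 0.0214). Mpo (myeloperoxidase) was at 3.34, 0.420 and 3.05 CPM in WT and at 16.4, 7.15 and 16.6 CPM in cKO (2.50, SE 0.53, adjusted p = 0.0273). Ctsg and Prtn3, proteases of the same granules, rose by 3.06 and 2.83. The granule proteins of mature neutrophils did not follow, since Ltf was at -0.03, Camp at 0.09 and S100a8 at 0.28 with no call. Over the 21 neutrophil genes the median was 0.36. Without WT replicate 2, cKO replicate 1 or cKO replicate 3, 0 of them were called (median 0.50, -0.17 and 0.64), and Elane, Ctsg and Mpo each lost their call in these 3 fits. Summed over the list, the level was 171 to 279 CPM in WT and 214 to 477 CPM in cKO, cKO replicate 1 being the highest.

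Cd34, a surface protein of progenitors and of vessel and stromal cells, was the 1 gene called of 15 in the myeloid progenitor list, at 0.261, 0.700 and 2.53 CPM in WT and 29.3, 15.05 and 15.2 CPM in cKO (4.04, SE 0.89, adjusted p = 0.0323).

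**Figure D3:**
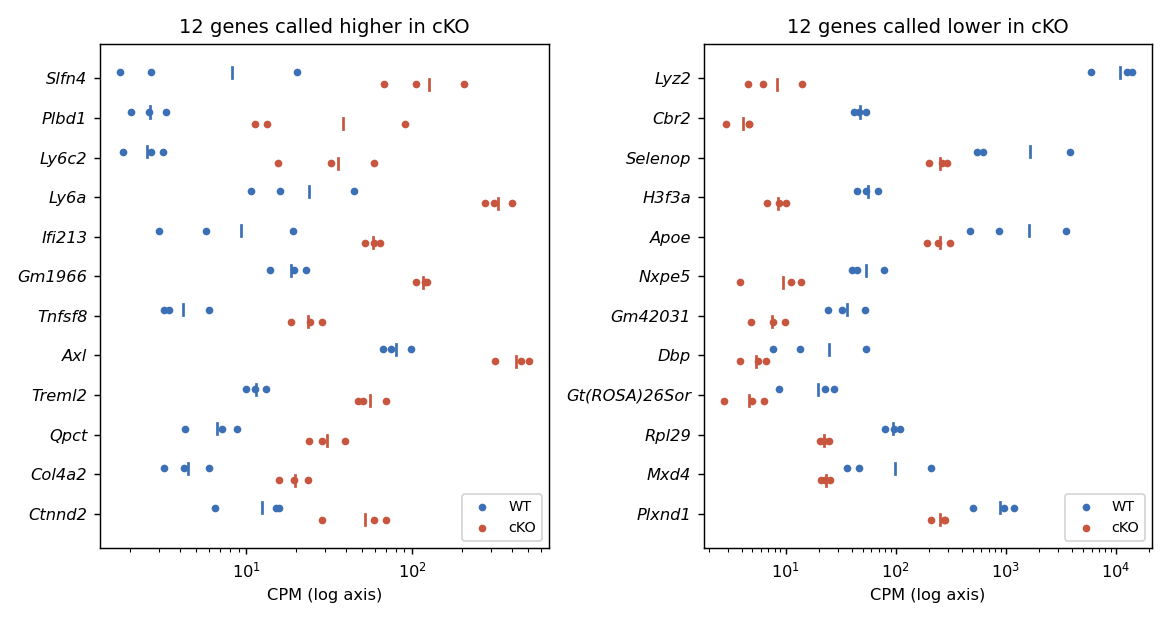
CPM in each library (points, log axis) with the group mean (tick) for the 12 genes called higher and the 12 called lower with the largest log2 fold changes. Only genes whose mean log2 CPM reached 3 and whose groups were apart were eligible. Red cKO points and blue WT points are apart in every row, and a high WT replicate 2 pulls the WT mean up in Selenop, Apoe, Dbp and Mxd4.

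Other genes that rose are described singly. Axl, a receptor kinase for the uptake of dying cells, was at 74.9, 98.9 and 66.7 CPM in WT and at 316, 456 and 504 CPM in cKO (2.41, SE 0.29, adjusted p = 0.000523). Atp1b3, a subunit of the sodium-potassium pump, was at 232, 227 and 183 CPM in WT and at 627, 590 and 701 CPM in cKO (1.58, SE 0.14, adjusted p = 3.94e-05). The spread within each group was small against the difference in both genes. Ly6a (Sca-1), a surface protein of stem cells that interferon also raises, was at 44.9, 15.9 and 10.7 CPM in WT and at 399, 275 and 314 CPM in cKO (3.78, SE 0.56, adjusted p = 0.00314). Mapped reads of Ly6a and Ly6c2, members of a family of close copies, are uncertain to the extent that they could be shared.

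Atp1b3 and the genes Flrt3 and Itgb7 were chosen after their values were seen, as genes called in each fit that left a library out. Flrt3, a cell adhesion and guidance protein, was at 1.04, 0.140 and 0.672 CPM in WT and 60.2, 14.5 and 21.2 CPM in cKO (5.60, SE 0.90, adjusted p = 0.00550). Itgb7, an integrin chain, was at 56.6, 54.9 and 53.5 CPM in WT and 181.5, 180.1 and 205 CPM in cKO (1.78, SE 0.28, adjusted p = 0.00405). Treml2, a receptor of the TREM family, rose by 2.28 (SE 0.45) and Tnfsf8, the ligand of CD30, by 2.49 (SE 0.38). Cd300lf, a lipid-binding receptor, rose from 26.4, 28.9 and 26.8 CPM to 93.3, 63.3 and 62.1 CPM and was with Axl 1 of 2 called of 29 Fc, complement and phagocytic receptors (1.41, SE 0.20, adjusted p = 0.00183). Qpct, an enzyme that modifies the ends of peptides, rose by 2.18 (SE 0.32), and part of its locus is also annotated as Gm26637. The catenin gene Ctnnd2 rose by 2.06 (SE 0.39), and Gm1966, annotated as a pseudogene, by 2.64 (SE 0.37).

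In the stromal and collagen list, 5 of 18 tested genes rose and 0 fell, the 5 from WT levels under 5 CPM. All 18 fold changes were positive, with a median of 2.47. Acta2 (smooth muscle actin) was at 1.30, 3.29 and 2.74 CPM in WT and at 22.2, 8.73 and 7.97 CPM in cKO (2.43, SE 0.40, adjusted p = 0.00594). Postn (periostin) was at 0.417, 3.57 and 1.14 CPM in WT and at 16.6, 10.3 and 12.96 CPM in cKO (3.05, SE 0.71, adjusted p = 0.0401). Col5a1, Sparc and Igfbp7 rose by 2.67, 2.63 and 2.64.

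Col1a1, the main collagen of fibroblasts, was at 1.98, 23.3 and 9.05 CPM in WT and at 76.9, 54.5 and 60.8 CPM in cKO. Its groups did not overlap, but it was not called (2.51, SE 0.70, adjusted p = 0.0806). With the replicate block it was (2.97, adjusted p = 0.0157), and 12 of the 18 genes were called in place of 5. Leaving out single libraries gave 1 call (without WT replicate 3, cKO replicate 1 or cKO replicate 3) to 11 (without WT replicate 2). The list summed to 10.3, 68.8 and 25.9 CPM in WT and to 242.7, 152.5 and 169.9 CPM in cKO, so each cKO library held more of these transcripts than each WT library. Dcn, Lum, Pdgfra, Thy1, Tagln, Lepr and Mgp, which also mark stromal cells, had too few counts to be tested. Whether the matrix transcripts came from macrophages or from stromal cells left in the culture was not tested.

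Further genes of this kind lay outside the list. Col4a2, a basement membrane collagen, rose by 2.11 (SE 0.41). Of 19 matrix proteases and inhibitors, 2 rose and 0 fell, among them Adamts1, a matrix protease, which rose by 2.44 from under 0.2 CPM.

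Interferon-stimulated genes were high in both genotypes on day 7. Of 63 tested, 1 rose (Ifi213) and 0 fell, 62 had a positive fold change, and the median was 0.60. Summed, they came to 11920, 5886 and 4248 CPM in WT and to 12880, 9794 and 10610 CPM in cKO. WT replicate 1 thus lay inside the cKO range, and without it the median was 1.22 and 6 genes were called. Leaving out any other single library gave 0 calls and a median of 0.31 (without WT replicate 3) to 0.71 (without cKO replicate 2). With the replicate block the median was 0.79 and 5 were called, among them Irf7 (adjusted p = 0.0461) and Ifi44 (adjusted p = 0.00270).

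The distance between the genotypes had been wider earlier in culture. The same sum was 1309, 1074 and 999.8 CPM in WT on day 3 against 10100, 8386 and 10960 CPM in cKO, and 3273, 1491 and 1499 CPM in WT on day 5 against 19380, 5226 and 6058 CPM in cKO. Levels in WT were therefore higher on day 7 than on either earlier day in each library, while cKO libraries of day 7 lay within the range of cKO libraries of days 3 and 5. The list's median log2 fold change was 3.84 on day 3, 2.78 on day 5 and 0.60 on day 7.

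Irf7, a factor that drives interferon genes, was at 341, 80.6 and 45.2 CPM in WT and at 546, 294 and 329.9 CPM in cKO on day 7. Its log2 fold change was 1.32 (SE 0.80, adjusted p = 0.429), against 6.60 on day 3, when WT libraries held 3.48 to 6.68 CPM. The groups overlapped, since WT replicate 1 was above 2 of the cKO libraries.

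Ifi213, a DNA sensor of the AIM2 family with close copies in its cluster, was at 19.1, 5.74 and 2.999 CPM in WT and at 63.8, 52.3 and 58.7 CPM in cKO (2.64, SE 0.64, adjusted p = 0.0410). Other interferon-responsive genes outside the list rose too. H2-Q6 and H2-Q7, MHC class I genes that resemble each other closely, rose by 3.79 (SE 0.69) and 2.66 (SE 0.59), 2 of 16 class I genes. H2-Q5 and Oas1h, outside the lists and chosen after their values were seen, rose by 1.86 and 1.72. Both were called in only 1 of the fits that left a library out. Apol9b, an apolipoprotein L gene chosen after its values were seen, was at 2.50, 0.140 and 0.155 CPM in WT and 21.9, 6.27 and 8.76 CPM in cKO (3.63, SE 0.88, adjusted p = 0.0358).

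The interferon-stimulated response element is the stretch of DNA through which type I interferon acts on its target genes. To show it in these loci, RefSeq promoters (250 bases before the annotated start, GRCm38.p6) were searched on both strands for GAAA, any 2 bases and GAAA again. As examples, 2 of the 6 genes that rose and hold it (Ifi213 and Apol9b) and 2 members of the interferon list that were not called (Oas1a and Ifit1) are printed along the gene's strand. Matches are in capitals, those of Apol9b and Oas1a being 2 that overlap, and distances are those of the match nearest to the start.
Ifi213, chr1:173599311-173599370, minus strand, 73 bases before the start: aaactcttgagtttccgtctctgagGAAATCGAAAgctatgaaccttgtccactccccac
Apol9b, chr15:77729016-77729071, plus strand, 31 bases before the start: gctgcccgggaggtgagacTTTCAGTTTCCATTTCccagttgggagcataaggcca
Oas1a, chr5:120907526-120907564, minus strand, 14 bases before the start: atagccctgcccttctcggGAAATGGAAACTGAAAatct
Ifit1, chr19:34640779-34640838, plus strand, 85 bases before the start: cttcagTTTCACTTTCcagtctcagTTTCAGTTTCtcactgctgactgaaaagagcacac
The motif was in 26 of 48 matched promoters of the interferon list (54.2%), in 6 of 125 of the genes that rose (4.8%), in 4 of 83 of those that fell (4.82%) and in 362 of all 10618 matched (3.41%). Fewer than 80% of each set had a promoter in the reference, so these shares describe the matched genes and are not a comparison.

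**Figure D4:**
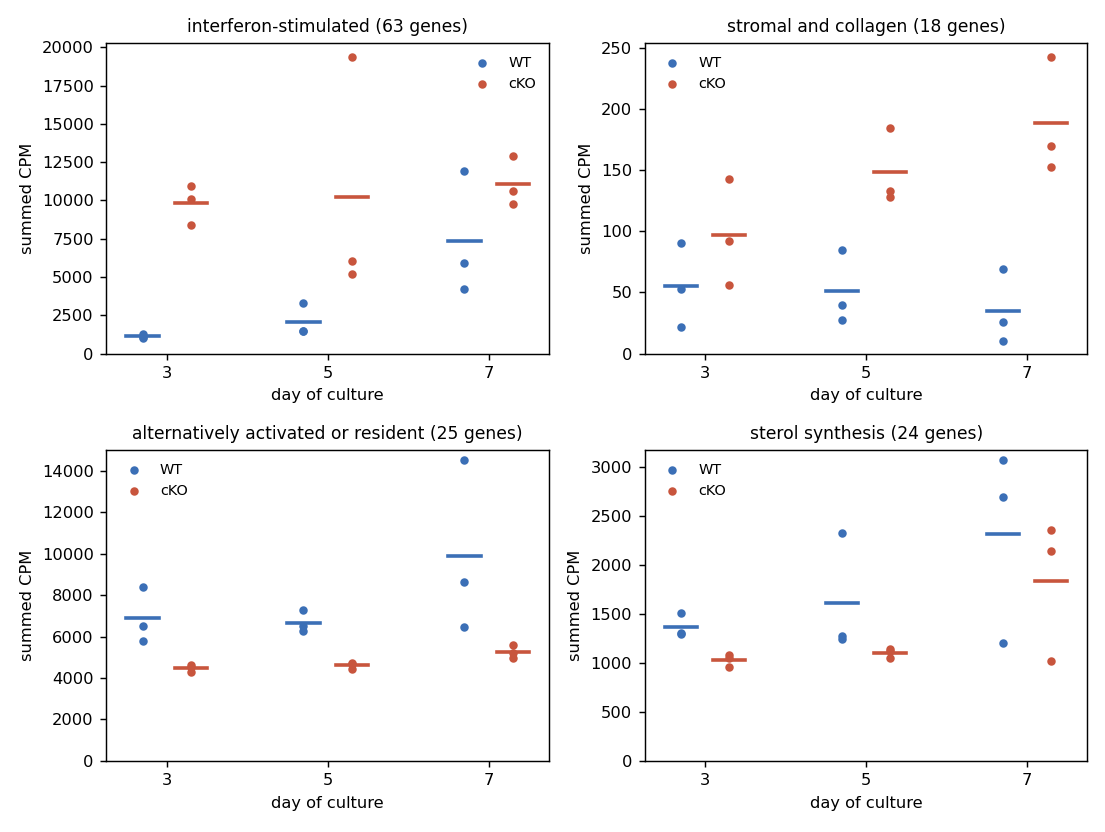
Summed CPM of 4 gene lists in each library (points) with the group mean (line), WT in blue and cKO in red, by day of culture. The interferon sum of WT reaches 4248 to 11920 CPM on day 7 from 999.8 to 1309 on day 3, the mean stromal sum of cKO is highest on day 7, and the sterol sums of the genotypes overlap on day 7.

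Among genes that fell, several are known from resident or alternatively activated macrophages. Of 25 tested, 3 fell and 0 rose, with a median of -0.56. Without WT replicate 1, 7 fell and 2 rose (median -0.23), without WT replicate 2 or any single cKO library 1 fell, and with the replicate block 3 fell and 2 rose. Cbr2, a carbonyl reductase of such cells, was at 46.0, 53.5 and 41.7 CPM in WT and at 2.88, 4.69 and 4.67 CPM in cKO (-3.52, SE 0.33, adjusted p = 4.21e-05). Stab1 (stabilin 1), a scavenger receptor, was at 2267, 5091 and 3886 CPM in WT and at 1378, 2158 and 1743 CPM in cKO (-1.09, SE 0.26, adjusted p = 0.0437). Cbr2 was separated by a wide margin and Stab1 by a narrow one.

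Selenop, the plasma selenium carrier, was at 551, 3793 and 623 CPM in WT and at 201, 261 and 293 CPM in cKO (-2.72, SE 0.59, adjusted p = 0.0308). Apoe, the apolipoprotein of cholesterol export, was at 861, 3482 and 471 CPM in WT and at 194, 314 and 242 CPM in cKO (-2.68, SE 0.60, adjusted p = 0.0349). In both, WT replicate 2 was several times the other WT libraries, and without it neither was called (-1.22, adjusted p = 0.118, and -1.42, adjusted p = 0.170). The mannose receptor Mrc1, a marker of the same cells, had a log2 fold change of -1.46 and was not called (adjusted p = 0.0887).

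Maf, a transcription factor of mature macrophages, was at 708, 1083 and 760 CPM in WT and at 466, 458 and 431 CPM in cKO (-0.91, SE 0.21, adjusted p = 0.0352). It was the 1 gene called of 32 myeloid transcription factors, while Spi1 (PU.1) had -0.05 and Irf8 -0.20. Plxnd1, a semaphorin receptor, was at 508, 1184 and 962 CPM in WT and at 210, 272 and 278 CPM in cKO (-1.80, SE 0.23, adjusted p = 0.000926). Nxpe5 fell by 2.49 (SE 0.43).

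Genes of other functions fell beside them. Dbp, a clock output factor, was at 7.77, 53.5 and 13.7 CPM in WT and 3.88, 5.68 and 6.71 CPM in cKO (-2.18, SE 0.53, adjusted p = 0.0453), and was not called with the replicate block (-2.01, adjusted p = 0.0585). Mxd4, an antagonist of Myc, was at 36.1, 211 and 46.5 CPM in WT and 21.2, 22.96 and 25.2 CPM in cKO (-2.08, SE 0.47, adjusted p = 0.0362). Here too WT replicate 2 was the high library. Without it the values were -0.98 (Dbp, adjusted p = 0.232) and -0.84 (Mxd4, adjusted p = 0.102).

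Sesn1, a p53 target that restrains growth signalling, fell by 1.495 (SE 0.31), and Pmaip1 (Noxa), a p53 target that promotes cell death and the 1 gene called of 36 apoptosis regulators, rose by 1.31 (SE 0.30). They were the 2 called of 25 p53 targets, whose median was close to 0. Cdkn1a (p21) was at 262, 129.5 and 179 CPM in WT and at 389, 190.2 and 197 CPM in cKO, with overlapping groups (0.44, adjusted p = 0.488).

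Proliferation genes differed less between genotypes than between libraries. Of 30 tested, 0 were called by edgeR, 0 by DESeq2 and 0 had an unadjusted p under 0.05. The same counts were 0, 0 and 0 for 30 DNA replication genes and for 10 replication-coupled H3 genes, and 0, 2 and 3 for 44 nucleotide synthesis genes. The proliferation list had a median of 0.37, with 29 of 30 fold changes positive, and summed to 3175, 1539 and 4174 CPM in WT and to 2871, 4138 and 4341 CPM in cKO. WT replicate 2 was the lowest, and without it the median was 0.07. Mki67, the proliferation marker, was at 585, 307 and 1043 CPM in WT and at 528, 955 and 1006 CPM in cKO. Gmpr, a purine salvage enzyme, was at 13.7, 12.7 and 12.9 CPM in WT against 8.06, 9.37 and 9.02 CPM in cKO (-0.57, SE 0.15, adjusted p = 0.0692).

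In the lipid lists, Sptssa, a subunit of the first enzyme of sphingolipid synthesis, fell from 86.6, 115 and 99.7 CPM to 45.3, 60.7 and 61.4 CPM (-0.85, SE 0.15, adjusted p = 0.0119). Sterol synthesis genes had a median of -0.42 with 23 of 24 negative, 0 called by edgeR, 1 by DESeq2 and 1 with an unadjusted p under 0.05. Their sum was 3072, 1200 and 2694 CPM in WT and 1020, 2354 and 2149 CPM in cKO, so that the low libraries were WT replicate 2 and cKO replicate 1 and the groups overlapped. Lpin1, a phosphatidate phosphatase, was at -1.31 with no call (adjusted p = 0.0937).

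The remaining lists held few calls. Rac3, a small GTPase, fell by 1.42 (SE 0.20), which with Sptssa made 2 of the 24 genes the study names for its RNA-seq. Lysosome (33 genes), glycolysis (25), chemokine (24), MHC class II (10), iron and redox (19), M-CSF signalling (12), H3.3 deposition (17), ribosomal protein (38), mitochondrially encoded (7) and housekeeping (12) genes had 0 calls each in edgeR. DESeq2 called 3 of the lysosome genes lower and 0 in the other lists just named, and 33 lysosome genes held 8 with an unadjusted p under 0.05. Calls were also 0 for the markers of dendritic (13), B (11), T and NK (4), mast cell, basophil and eosinophil (10) and erythroid (11) cells, of which DESeq2 called 1 dendritic gene. Ighm, an immunoglobulin transcript, was at 52.3, 187 and 101 CPM in WT and at 5.76, 42.2 and 50.2 CPM in cKO with no call (adjusted p = 0.237).

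A group of neighbours on chromosome 9 fell together. Between positions 106368632 and 106464012, Dusp7, Rpl29, Abhd14a and Pcbp4 were called lower, 4 of the 22 tested genes between positions 106152857 and 106895182. This group was chosen after its values were seen. Rpl29, a protein of the large ribosomal subunit with many processed copies in the genome, was at 79.6, 109.9 and 95.8 CPM in WT and at 24.6, 20.6 and 22.4 CPM in cKO (-2.08, SE 0.21, adjusted p = 8.22e-05). Of 38 other ribosomal protein genes 0 were called, and their fold changes lay between -0.41 and 0.32. Pcbp4, an RNA-binding protein, was at 5.06, 16.1 and 7.60 CPM in WT and at 2.76, 1.64 and 1.31 CPM in cKO (-2.32, SE 0.38, adjusted p = 0.00602). The libraries are not stranded, and overlapping genes such as Abhd14a and Abhd14b there cannot be told apart in full.

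Gt(ROSA)26Sor, the non-coding transcript of the Rosa26 locus, was at 22.9, 8.82 and 27.3 CPM in WT and at 2.76, 6.33 and 4.93 CPM in cKO (-2.08, SE 0.40, adjusted p = 0.0194). The predicted gene Gm42031 fell by 2.29 (SE 0.39).

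Of the 24 genes with the largest changes, 12 were called in every fit that left a library out: Lyz2, H3f3a, Cbr2, Nxpe5, Rpl29 and Plxnd1, and, of those that rose, Ly6c2, Ly6a, Gm1966, Tnfsf8, Axl and Qpct. From the 6 day 7 libraries alone, 5 of these were not called: Plxnd1 (adjusted p = 0.142), Nxpe5 (0.167), Ly6a (0.0687), Qpct (0.0687) and Ly6c2 (0.0633). Without WT replicate 2, the adjusted p was 0.147 for Slfn4, 0.0640 for Plbd1, 0.152 for Ifi213, 0.0652 for Treml2, 0.0641 for Col4a2 and 0.0529 for Ctnnd2. Without cKO replicate 1, it was 0.152 for Slfn4, 0.0568 for Plbd1, 0.124 for Ifi213, 0.0812 for Treml2, 0.0622 for Gm42031 and 0.0944 for Gt(ROSA)26Sor. The log2 fold change of Plbd1 was then 2.23. Slfn4 and Ifi213 were also not called without WT replicate 3, cKO replicate 2 or cKO replicate 3, where their adjusted p ranged from 0.0580 to 0.0881. Col4a2 missed without cKO replicate 2 (0.0550), and Ctnnd2 (0.0602) and Gt(ROSA)26Sor (0.0643) without cKO replicate 3. Selenop, Apoe, Dbp and Mxd4 missed without each single cKO library as well, with an adjusted p of 0.0748 to 0.191. Direction held for all 24. Of all 48 called genes that are named under the rule or the lists, 18 were called in each of the 6 fits and 30 were not in at least 1. Among list members the widest losses were those of Stab1, Postn, Sparc, Pmaip1 and Adamts1, each called in only 1 of the 6, and Maf, Sesn1, Gsr, Cd34, Prtn3, Col5a1, Igfbp7 and H2-Q7 in 2. Of genes chosen after their values were seen, Apol9b, Enpp4 and Dusp7 were called in 2 of the 6.

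The genes called on day 7 were then read on the other days of the same course, in libraries from the same fit. On day 5, 179 of the 181 genes that rose on day 7 lay on the same side and 89 were called higher (background 2.46%), and of the 110 that fell, 108 lay on the same side and 35 were called lower (background 0.658%). On day 3 the counts were 165 and 85 (background 6%), and 97 and 40 (background 2.64%). On all 3 days 98 genes were called in one direction, 70 higher and 28 lower, and 139 were called on day 7 alone. Acta2 shows the second kind: its log2 fold change was -0.05 on day 3, 0.94 on day 5 and 2.43 on day 7. So do Selenop (-0.25, -0.94 and -2.72) and Apoe (0.38, -0.58 and -2.68).

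A call on one day and not on another does not show that the effects differ, so the difference was tested as an interaction. Between day 7 and day 3, 7 genes passed (0.0439%; 2 with a higher and 5 with a lower effect on day 7), 155 with the replicate block, and 2491 at an unadjusted p under 0.05. One was Irf9, a subunit of the factor that reads out type I interferon. It was at 25.2 ± 3.50 CPM (n = 3) in WT and 84.7 ± 1.74 in cKO on day 3, and at 86.7 ± 14.9 and 88.5 ± 6.11 on day 7. The log2 fold change thus went from 1.75 to 0.03 (difference -1.72, SE 0.27, adjusted p = 0.0293). Between day 7 and day 5, 0 genes passed in edgeR (589 at an unadjusted p under 0.05) and 1 in DESeq2.

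Finally, the same genes were read in libraries that share no sample with the time course: 3 sets of cKO and WT BMDMs (3 libraries a group), BMDMs grown without antibody (3 a group) and untreated BMDMs on day 8 (3 WT, 2 cKO). The labels do not say whether they share animals with each other, and those of the 3 sets give no day of culture. By the paper's methods, cells of the antibody experiment were lysed before day 7. In set 1, 136 of 178 genes that rose on day 7 were called higher (background 17.1%) and 104 of 110 that fell were called lower (15.3%). Set 3 gave 131 of 178 (16.5%) and 106 of 110 (17.5%), and set 2 gave 111 of 178 (9.25%) and 67 of 110 (10.4%). Without antibody the counts were 54 of 172 (4.01%) and 34 of 108 (4.15%), and on day 8 they were 12 of 157 (0.558%) and 5 of 107 (0.0994%).

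Among genes that rose on day 7, those on the same side ran from 152 of 178 in set 2 (85.4%, against 48.5% of all genes) to 156 of 157 on day 8 (99.4%, against 51.2%). Among genes that fell, they ran from 83 of 108 without antibody (76.9%, against 49.7%) to 110 of 110 in sets 1 and 3. In set 2, 6 genes that rose on day 7 were called lower. Called in the day 7 direction in all 5 comparisons were 9 genes that rose (Flrt3, Acoxl, Slfn4, Ly6a, Apol9b, Ifi213, Gm1966, Enpp4 and Atp1b3) and 3 that fell (Lyz2, Cbr2 and H3f3a). Each of these 12 was also called on days 3 and 5. They were picked by these results and are given as a description. H3f3b, which was not called on day 7, was called lower in sets 1 to 3 and without antibody.

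Acoxl, which resembles acyl-CoA oxidases, was at 0.261, 0.280 and 0.103 CPM in WT and at 6.12, 3.98 and 4.56 CPM in cKO on day 7 (4.50, SE 0.53, adjusted p = 0.000492), and its fold changes elsewhere ran from 4.68 to 7.11. Those of Ly6a ran from 2.62 to 4.89, those of Atp1b3 from 0.61 to 3.09 and those of Cbr2 from -3.95 to -1.82.

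At the other end, 27 genes that rose on day 7 and were tested in all 5 comparisons were called in none of them. They include Acta2, Col5a1, Igfbp7, Fkbp10, Nid1, Pxdn, Lamb1, Plod2, Cdh11, Cald1, Flnc and Ccdc80, which build or modify matrix or the contractile skeleton, and Yap1 and Wwtr1, the Hippo pathway coactivators. Each gene just named lay on the day 7 side in 5 of the comparisons or, for Col5a1, Nid1, Pxdn, Cdh11 and Ccdc80, in 4. Of the others among the 27, Rhobtb3 lay there in 2 and Adamts1 in 1. The median level of the 27 was 0.342 CPM in WT and 2.07 CPM in cKO on day 7, against 8.22 and 58.3 CPM for the 9 called everywhere. In 19 of the 27 the WT mean was under 1 CPM. The whole stromal and collagen list had a median of 0.95 in set 1 (6 called higher), -0.06 in set 2 (1 higher, 4 lower), 1.16 in set 3 (7 higher), 0.58 without antibody and 1.01 on day 8 (0 called in either). The interferon list had a median of 0.96 in set 1, 1.08 in set 2, 0.82 in set 3, 2.02 without antibody and 1.23 on day 8. Of its 63 genes, 53, 55, 49, 56 and 28 were called higher in that order. In set 2, 1 was called lower. Of 24 sterol synthesis genes, 22 were called lower in each of the 3 sets, 0 without antibody and 2 on day 8.

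**Figure D5:**
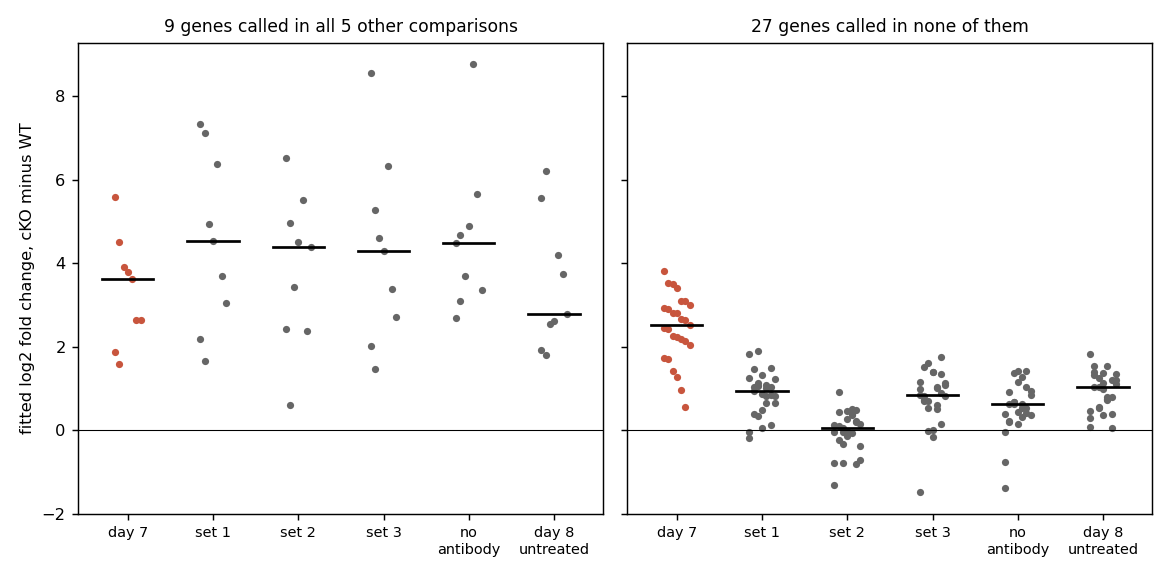
Fitted log2 fold changes (points) with their median (line) for 9 genes called higher on day 7 and in all 5 other comparisons (left) and for 27 called higher on day 7 and in none of them (right). Both sets were picked by their calls in these 5 comparisons, so that their positions there restate the choice.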

How the data were processed

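RNA was depleted of rRNA and made into libraries with a kit that does not mark strand. Reads were trimmed with cutadapt and aligned with STAR to mm10 by the authors, and tool versions are not given in the sources used here. The deposited tables hold raw counts per gene, of which the unstranded column was used. Both strand columns held 55.7% and 54.6% of its total. All 18 time course libraries were fitted together (1 term per genotype and day) after filterByExpr and TMM scaling, with edgeR 4.0.16 (quasi-likelihood, non-legacy dispersion, Benjamini-Hochberg adjustment over 15955 genes) in R 4.3.3. The other experiments were fitted separately. Named genes were the targets, the 12 higher and 12 lower called genes with the largest fold changes (mean log2 CPM of at least 3, groups apart), genes the study names, called list members and genes passing an interaction. The members and gene lists were chosen with earlier results of these data known. Deviations of same-numbered WT and cKO libraries from their group means correlated at 0.467, 0.153 and 0.201 on day 7. WT 3 and cKO 2, which differ in number, reached 0.359. Same-numbered libraries were at 0.419, 0.126 and 0.252 on day 3 and at 0.123, -0.0232 and 0.167 on day 5. Libraries that differ in number reached 0.214 on day 3 (WT 3, cKO 2) and 0.145 on day 5 (WT 2, cKO 3). These values do not settle whether the numbers pair the samples. The fit reported has no replicate term, and values with the replicate block are given where it changes a call or a count. P-values rest on a spread per gene pooled over the 18 time course libraries, not on that of the 6 day 7 libraries alone. In simulated counts (15615 genes), 61 of 100 genes changed by log2 1 and 91 of 100 changed by log2 2 were recovered, with 10 false calls. The changed genes there had a mean of at least 1 CPM, all groups shared the same spread, and no library stood apart. In the data, 73 of the 181 genes that rose had a WT mean under 1 CPM, so these figures need not hold for this comparison. Alternatives were other scaling, filters, a strand column, the replicate block, DESeq2 1.42.0, the day 7 libraries alone, and each library left out. The legacy edgeR method was added after seeing the data. Of the day 8 libraries, 2 cKO libraries whose labels disagree were not used. Coordinates are from GENCODE vM21. Some genes that enter the counts are not reported here by name.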

Additional observations from a re-analysis of the deposited data

Results flagged for a closer look

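For 7 genes the difference between cKO and WT on day 7 itself differed from that on day 3 in edgeR's interaction test. Values are the day 7 minus day 3 difference in log2 fold change. For Ccl8, a chemokine, it was -9.01 (SE 1.33, adjusted p = 0.0293). Its level was 0 to 0.0682 CPM in WT and 2.45 to 4.39 CPM in cKO on day 3, and on day 7 it was 2.29 CPM in WT replicate 1 and under 0.2 CPM in the other 5 libraries. For Irf9 it was -1.72 (SE 0.27, adjusted p = 0.0293), with WT libraries at 21.2 to 27.6 CPM on day 3 and 69.5 to 96.5 CPM on day 7, and cKO libraries at 82.7 to 85.8 and 83.5 to 95.3 CPM.

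Nectin4, an adhesion protein, gave -2.49 (SE 0.41, adjusted p = 0.0378): WT libraries went from 1.57 to 2.59 CPM on day 3 to 14.9 to 20.3 CPM on day 7, while cKO libraries held 14.4 to 16.2 and 22.6 to 26.2 CPM. Gm43068, a predicted gene, gave -4.92 (SE 0.77, adjusted p = 0.0293) and Cox6a2, a cytochrome oxidase subunit, -4.22 (SE 0.65, adjusted p = 0.0293), both from levels under 0.4 CPM in WT on day 3.

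L1cam, a cell adhesion molecule, moved the other way (1.68, SE 0.26, adjusted p = 0.0293). It was at 41.4, 54.6 and 52.96 CPM in WT and 27.5, 33.1 and 34.9 CPM in cKO on day 3, and at 43.1, 23.4 and 42.2 CPM in WT and 75.9, 73.04 and 75 CPM in cKO on day 7. Dagla, an enzyme of endocannabinoid synthesis, gave 1.68 (SE 0.27, adjusted p = 0.0378), from 26.6 to 29.0 CPM in WT and 12.8 to 15.4 CPM in cKO on day 3 to 10.8 to 22.7 and 24.5 to 33.6 CPM on day 7. Its day 7 fold change of 0.75 was called with the replicate block (0.76, adjusted p = 0.0467).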

How the results depend on the processing

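The count of 291 genes was 301 with RLE size factors, 290 without a filter, 251 at a mean of at least 1 CPM, 244 on a strand column, 223 with the legacy method and 208 at a log2 fold change of at least 1. It was 744 in DESeq2 (415 higher, 329 lower), 448 with the replicate block, 19 from the 6 day 7 libraries alone and 23 with both. When single libraries were left out it ran from 64 to 846. Why these counts differ was not tested. Calls among genes of the lists, leaving out that of genes the study names, were 32, and 75, 52, 6 and 7 in the same order, and 9 to 69. The day 7 minus day 3 count of 7 became 65 without a filter, 0 on a strand column, 155 with the replicate block, 463 in DESeq2 and 0 to 151 with a library left out. The day 7 minus day 5 count of 0 became 1 with the replicate block and 1 in DESeq2.

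Of day 7 genes called by DESeq2, 609 were called alike in set 1, 399 in set 2, 612 in set 3, 182 without antibody and 28 on day 8, and of those called with the replicate block 360 in set 3, 135 without antibody and 33 on day 8. The replicate block changed no call of a named gene other than Dbp, Col1a1, Ifi44, Irf7 and Dagla.

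Among the named genes, signs turned only for those that were not called. Of all genes called on day 7, 274 were tested on a strand column and 273 kept their side there. With a library left out, the log2 fold change of Paics ran from -0.33 to 0.033, of Adssl1 from -0.40 to 0.093, of Irf8 from -0.36 to 0.14, of Impdh1 from -0.38 to 0.42, of Uprt from -0.10 to 0.13, of Spi1 from -0.25 to 0.097, of Tk1 from -0.36 to 0.32, of Ccr3 from -3.13 to 0.50, of Ciita from -1.38 to 0.42, of H2-DMb1 from -0.29 to 0.14 and of Irf9 from -0.089 to 0.12. Irf9 was -0.029 on a strand column, Impdh1 0.060 in the 6 libraries with the replicate block, and Tk1 0.030 with the replicate block, 0.0017 in the 6 libraries and 0.14 in these with the replicate block. The cause of these changes was not tested.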

Other observations

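Rpl29 and Pcbp4, the neighbours on chromosome 9 that fell on day 7, were also lower outside the time course in all comparisons but day 8. The log2 fold change of Rpl29 was -1.89 in set 1, -0.59 in set 2, -2.02 in set 3 and -2.36 without antibody, each called, and 0.04 on day 8. That of Pcbp4 was -3.27, -0.89, -3.08 and -2.64, each called, and -0.17 on day 8. On days 3 and 5 the values were -2.52 and -2.08 for Rpl29 and -2.38 and -2.02 for Pcbp4. The called neighbours Dusp7 and Abhd14a held less widely. Both were called lower in sets 1 and 3 but not in set 2 (-0.22 and -0.50). Without antibody Abhd14a was called (-1.67) and Dusp7 was not (-0.55), and on day 8 they were at -0.007 and 0.12.

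Of the 18 genes around them that were not called on day 7, Abhd14b had a log2 fold change of -1.35 (adjusted p = 0.0661 in edgeR) and was called lower on days 3 and 5, in sets 1 and 3 and without antibody, and Parp3 had -0.76 (adjusted p = 0.0692) and was called lower in sets 1 and 3. Acy1, which lies between Rpl29 and Abhd14a, had -0.03.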
